A study of Mus musculus with 6 samples.

Results

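The genes described here are imprinted genes that act on growth: Peg10, Sgce, Peg3, Mest, H19, Igf2, Dlk1, Meg3, Plagl1 and Cdkn1c. They were listed by name, and the list was chosen by the low intensity of the genes around Peg10 in 1 tumour of the series, the TMP195 tumour with the number 2. A gene was taken as measured where a probe set of the array is annotated to that gene alone, which held for 9 of the 10, out of 19937 genes in all. H19 had no such probe set and is not analysed here. Each of the 9 was read by a single probe set, so none could be checked against another.

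Whole mammary tumours were taken from 6 female FVBN mice aged 75 to 90 days, all carrying the MMTV-PyMT transgene, in which a mammary tumour virus promoter expresses the polyoma middle T antigen in mammary epithelium. Of these mice, 3 had received the vehicle, DMSO, and 3 had received TMP195, an inhibitor of class IIa histone deacetylases, at 50 mg/kg once a day into the abdomen. The labels give 5 days of dosing in one place and 2 weeks in another. RNA from 1 tumour per mouse was hybridised to 1 Affymetrix array, so a group's 3 values come from separate animals and their number limits the precision of every difference. The tumours held all cell types of the tissue, so that fewer cells of a type and less RNA per cell cannot be told apart.

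Imprinted genes are transcribed mainly or only from the copy inherited from one parent. Peg10, Sgce, Peg3, Mest, Igf2, Dlk1 and Plagl1 are expressed from the paternal copy, and H19, Meg3 and Cdkn1c from the maternal copy. Many of them are highly expressed in the embryo and placenta, where paternally expressed members tend to promote growth and maternally expressed ones to restrain it, and most are turned down in tissues after birth. Parental alleles were not distinguished by these arrays.

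Peg3, a zinc finger protein gene, was the only one of the 9 with every TMP195 tumour above every vehicle tumour. Its log2 intensity read 8.32, 7.84 and 8.15 under vehicle and 8.60, 8.73 and 8.56 under TMP195, where values follow the tumour numbers 1, 2 and 3 throughout. The TMP195 tumours lay close together and the vehicle tumours were more spread, with vehicle tumour 2 lowest. The means were 8.10 ± 0.24 (SD, n = 3) and 8.63 ± 0.088 (SD, n = 3), so that TMP195 exceeded vehicle by 0.53 ± 0.14 (SE) on the log2 scale, or 1.44-fold (95% interval 0.20 to 0.85). In limma the unadjusted p was 0.00642, which ranked 50 among the 19937 genes, and the adjusted p over all genes was 1.00, so that Peg3 did not pass the threshold of 0.05. An exact permutation test of the 6 values, two-sided, gave p = 0.10, the smallest that 3 against 3 can give. The groups did not overlap in 6.68% of all genes, and 2.52% of genes had an unadjusted limma p under 0.05, 1.18% in the direction of Peg3. With TMP195 higher the share without overlap was 3.47%.

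The difference in Peg3 ranged from 0.40 without vehicle tumour 2 to 0.63 without vehicle tumour 1. It was 0.35 once both tumours numbered 2 had been dropped. Over the 14 alternative settings limma gave unadjusted p values from 0.00337 to 0.0236 and adjusted p values from 0.96 to 1.00. Groups that are apart stay apart when tumours are dropped, and most other settings kept the Peg3 values. Only median centring and cyclic loess could have made the groups overlap, and neither did. The neighbouring imprinted genes Zim1 and Usp29 are dim on these arrays, with mean intensities at percentiles 26.0 and 3.58 of all genes. They differed by 0.12 and 0.08 on the log2 scale, and Zim1 turned to -0.06 without TMP195 tumour 3.

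The promoter of Peg3 is shown because Peg3 carries the only separation of the groups among the 9 measured members. The first promoter of Meg3 is shown because it holds the same 8-base motif while its transcript did not separate the groups. A promoter of Mest is shown because that gene, with Meg3, had the widest range. Sequences are RefSeq windows of assembly GRCm38.p6, from 250 bases before to 50 bases after an annotated start, written 5′ to 3′ on the gene's strand. Capitals mark TGACGTCA, the cAMP response element, which reads the same on both strands. The windows are chr7:6730370-6730669 (minus strand) for Peg3, chr12:109540746-109541045 (plus strand) for Meg3 and chr6:30737800-30738099 (plus strand) for Mest.
Peg3: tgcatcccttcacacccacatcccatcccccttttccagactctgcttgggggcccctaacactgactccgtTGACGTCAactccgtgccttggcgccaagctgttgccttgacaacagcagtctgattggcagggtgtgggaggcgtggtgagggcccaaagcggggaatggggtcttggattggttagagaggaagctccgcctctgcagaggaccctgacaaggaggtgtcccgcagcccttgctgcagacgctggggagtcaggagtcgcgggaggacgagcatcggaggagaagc
Meg3: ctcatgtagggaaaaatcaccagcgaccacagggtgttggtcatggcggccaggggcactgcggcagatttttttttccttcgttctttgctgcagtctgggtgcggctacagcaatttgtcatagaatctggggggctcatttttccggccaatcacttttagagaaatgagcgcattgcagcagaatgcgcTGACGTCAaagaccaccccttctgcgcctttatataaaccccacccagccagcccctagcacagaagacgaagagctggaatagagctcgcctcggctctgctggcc
Mest: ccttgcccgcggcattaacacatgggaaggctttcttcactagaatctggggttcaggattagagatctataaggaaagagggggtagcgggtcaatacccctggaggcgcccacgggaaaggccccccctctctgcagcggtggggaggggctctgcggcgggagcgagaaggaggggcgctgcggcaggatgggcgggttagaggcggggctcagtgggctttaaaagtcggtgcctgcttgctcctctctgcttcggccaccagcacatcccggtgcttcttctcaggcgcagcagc

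Windows were found for 6 of the 10 genes (Peg3, Mest, Igf2, Dlk1, Meg3 and Plagl1), 12 windows in all. The cAMP response element lay in 2 of the 12 and in 1.79% of the 32851 promoter windows of the mouse table. Its first base lay at -178 from the annotated start in Peg3 and at -57 in Meg3. The hexamer TGCCGC, which the imprinting factor ZFP57 binds when methylated, was found on either strand in 5 of the 12 windows and in 11.6% of all windows. The Mest promoter shown held 2 copies, the Meg3 promoter 1 and the Peg3 promoter 0. Of the 5 windows with the hexamer, 2 are of Mest and overlap almost fully. The motifs were chosen after the sequences had been read. They describe the sequence, and no binding or methylation was measured in these tumours.

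**Figure D1:**
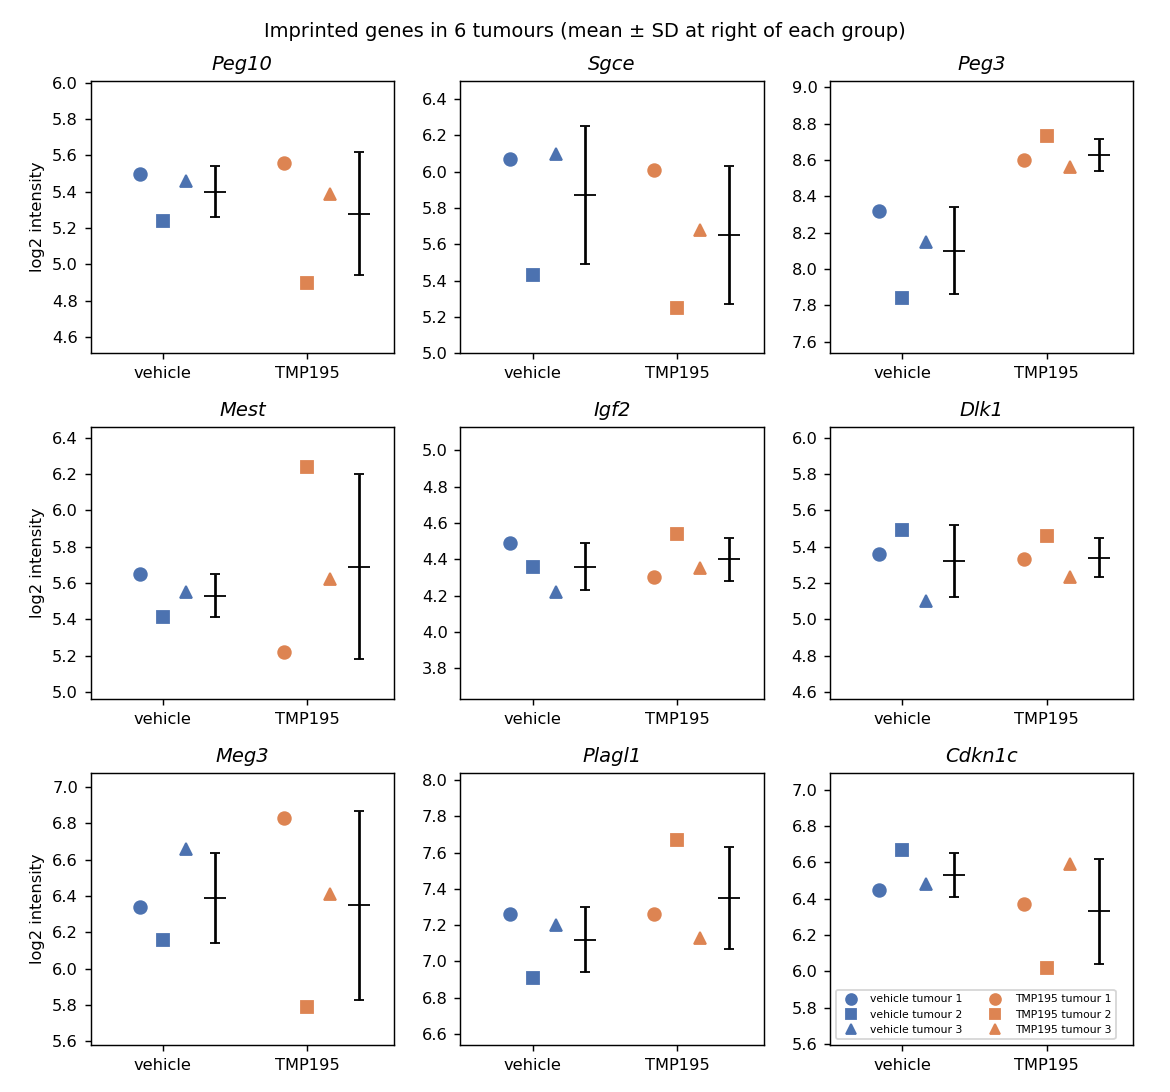
Log2 intensity of the 9 measured imprinted genes, 1 panel per gene with a span of 1.5 on each vertical axis; symbols are single tumours (blue, vehicle; orange, TMP195; circle, square and triangle for tumours 1, 2 and 3) and bars show mean ± SD of each group. The groups are apart in Peg3, where the TMP195 tumours lie from 8.56 to 8.73, and the orange square, TMP195 tumour 2, is the highest or lowest symbol in 8 of 9 panels.

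Peg10 and Sgce are neighbours on chromosome 6 that are transcribed in opposite directions from a shared, imprinted promoter region. Peg10 encodes a protein derived from a retrotransposon that the placenta needs, and Sgce encodes epsilon-sarcoglycan, a membrane protein. These values prompted the choice of genes and are given as a description, with no test. Log2 intensity of Peg10 read 5.50, 5.24 and 5.46 under vehicle and 5.56, 4.90 and 5.39 under TMP195. TMP195 tumour 2 was lowest, 0.33 below the next tumour, which was vehicle tumour 2, and the other 4 lay from 5.39 to 5.56.

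Sgce read 6.07, 5.43 and 6.10 under vehicle and 6.01, 5.25 and 5.68 under TMP195. Here too TMP195 tumour 2 was lowest and vehicle tumour 2 next, only 0.17 above it, so that the low level was not a feature of 1 tumour. Peg10 averaged 5.40 ± 0.14 under vehicle and 5.28 ± 0.34 under TMP195 (SD, n = 3 each), which puts TMP195 at -0.12 relative to vehicle (95% interval -0.54 to 0.31). For Sgce the difference was -0.22, with an interval of -0.81 to 0.37. Without TMP195 tumour 2 they were 0.075 for Peg10 and -0.021 for Sgce. Without vehicle tumour 2 they were -0.20 and -0.44, and the Sgce groups then did not overlap, as in 14% of all genes in that setting.

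The genes on either side of this pair were compared next, from Calcr to Dync1i1. Of 13 measured neighbours, 8 were lowest in TMP195 tumour 2, as 22.4% of all genes were, and 1, Gng11, was highest in it. Because the region was noticed in this tumour, the count is a description. The 8 include Tfpi2, at 6.81 in both TMP195 tumours 1 and 2, and Casd1, only 0.03 below the next tumour. They also include Dync1i1, Calcr and Pon1, dim at percentiles 7.16, 13.2 and 19.3 of mean intensity. The drop was deepest at genes beyond Peg10. Ppp1r9a, which encodes the actin-binding protein neurabin-1, was 6.08 in TMP195 tumour 2 and from 6.86 to 7.17 in the others. Pon3, a lactonase gene, was 7.85 in that tumour and from 8.66 to 8.91 elsewhere. Pdk4, a kinase that switches off pyruvate oxidation, was 2.83 there and from 4.66 to 7.58 in the others.

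Other genes of the region did not follow. Pon2, next to Pon3, was 8.30 in TMP195 tumour 2, within the range of the other tumours, and Bet1, a vesicle transport gene, was 6.78 there. Gng11, a G protein subunit gene, was 6.42 against 4.79 to 5.85. Only Pdk4 lay more than 2-fold below every other tumour, as 0.446% of all genes did in TMP195 tumour 2, and the gap of Peg10 was 0.33 on a scale where 2-fold is 1. Between the dosing groups, Pdk4 differed by -1.97 ± 0.96 (SE), Gng11 by 0.43 ± 0.35, Ppp1r9a by -0.31 ± 0.25 and Pon3 by -0.29 ± 0.26, and the groups overlapped in each. Without TMP195 tumour 2 these were -1.05, 0.10, -0.01 and 0.03. In the region as a whole 4 of 15 genes were higher under TMP195 and 11 lower, with a median of -0.06, and without TMP195 tumour 2 these were 9 and 6, with a median of 0.03. None passed the limma test over all genes.

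**Figure D2:**
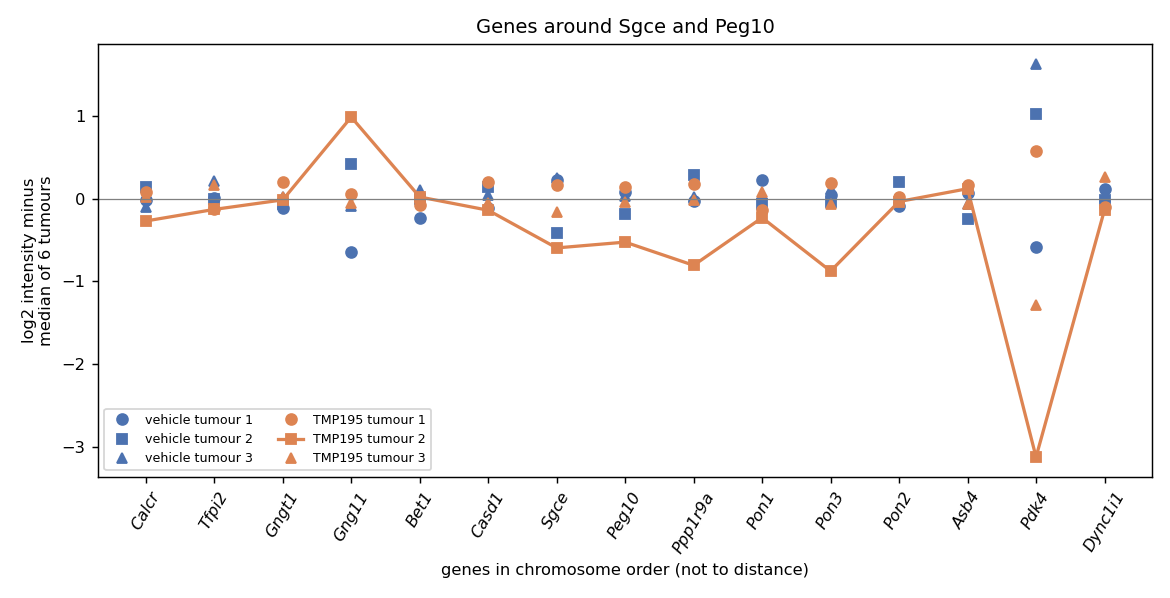
Log2 intensity minus the median of the 6 tumours for 15 genes in chromosome order around Sgce and Peg10; symbols are tumours, as in the legend, and the line joins TMP195 tumour 2. That tumour is lowest at Sgce, Peg10, Ppp1r9a, Pon3 and Pdk4 and highest at Gng11, while Bet1, Pon2 and Asb4 lie among the other tumours.

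Meg3, a maternally expressed long non-coding RNA, and Mest, a gene for a hydrolase-like protein that rises in growing fat, had the widest ranges. Meg3 read 6.34, 6.16 and 6.66 under vehicle and 6.83, 5.79 and 6.41 under TMP195. TMP195 tumours 1 and 2 were the highest and the lowest of the 6, a span of 1.04 or 2.06-fold, so the groups overlapped fully. The means were 6.39 ± 0.25 and 6.35 ± 0.52 (SD, n = 3 each), and TMP195 minus vehicle came to -0.04 (95% interval -0.67 to 0.59; limma, adjusted p = 1.00). It turned to 0.24 without TMP195 tumour 2 and to 0.097 without vehicle tumour 3.

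Mest read 5.65, 5.41 and 5.55 under vehicle and 5.22, 6.24 and 5.62 under TMP195. Again TMP195 tumours 1 and 2 marked the ends of the range, in the opposite order from Meg3, and Mest in TMP195 tumour 2 stood 0.59 above the next tumour. The difference of the means was 0.16, with a 95% interval of -0.42 to 0.74 (limma, adjusted p = 1.00), and it turned to -0.12 without TMP195 tumour 2. A range of at least 2-fold over the 6 tumours was found in these 2 of the 9 genes and in 7.64% of all genes. The median range was 0.75 in the 9 genes and 0.42 in all genes. Peg10 and Sgce are among the 9, and their low level in TMP195 tumour 2 prompted the list. Nothing is therefore read from this comparison.

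The microRNA miR-335 lies within Mest, and its mature 5p form is shown with the seed in capitals because the host and the microRNA were read by separate probe sets.
mmu-miR-335-5p: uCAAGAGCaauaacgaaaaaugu

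The Mir335 probe set was dim, at percentile 9.98 of mean intensity, and was 2.05 in TMP195 tumour 2 and from 2.38 to 2.54 in the other 5, where Mest was lower than in that tumour. Array probes do not tell a mature microRNA from its precursor. Copg2, the neighbour of Mest that overlaps it on the other strand, was 8.99 in TMP195 tumour 2 and from 8.66 to 8.90 in the others. Of 12 microRNAs of the imprinted loci, Mir541 was higher in every TMP195 tumour (difference 0.33 ± 0.14 SE) and Mir411 lower (-0.44 ± 0.16 SE), beside 3.47% and 3.21% of all genes. Mir541 was 0.18 without TMP195 tumour 3. Both belong to the Dlk1 and Meg3 locus and both ranked under the 5th percentile of intensity, at 4.38 and 4.89, and neither passed over all genes in limma (adjusted p = 1.00).

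Genes with the closest profiles were found by the root mean square difference of median-centred log2 values over the 6 tumours, among 13955 genes above the 30th percentile of intensity. Those nearest to Meg3 were Rangrf (0.06), Gm16062 (0.06) and Tbc1d8 (0.09). In each of these TMP195 tumour 2 was lowest and TMP195 tumour 1 highest, with Tbc1d8 at 7.90 and 8.89. Nearest to Mest were Sp4, a transcription factor gene (0.06), Mblac2 (0.06) and Pxdc1 (0.08). TMP195 tumour 2 was highest in each of these, at 6.01 in Sp4, 7.03 in Mblac2 and 7.72 in Pxdc1. All of these genes were picked for their likeness to Meg3 or Mest, so the shared extreme tumours follow from the choice.

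Dlk1 lies beside Meg3 and encodes a transmembrane relative of the Notch ligands that is known from fat cell precursors. It read 5.36, 5.49 and 5.10 under vehicle and 5.33, 5.46 and 5.23 under TMP195, and the groups overlapped. The difference was 0.02, with a 95% interval of -0.28 to 0.33 (limma, adjusted p = 1.00), and it turned to -0.083 without vehicle tumour 3 and -0.034 without TMP195 tumour 2. The tumours that were high in Meg3, TMP195 tumour 1 and vehicle tumour 3, were not high in Dlk1. The other genes of this locus, Begain, Rtl1, Rian and Dio3, ranked from percentile 13.8 to 31.0 of intensity. Begain differed by -0.18 ± 0.11 (SE) and Rtl1 by -0.15 ± 0.12, and none passed the test. Begain was -0.10 without TMP195 tumour 2, and Rtl1 -0.05 without vehicle tumour 1.

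Igf2 encodes insulin-like growth factor 2, which acts through the receptor encoded by Igf1r and is cleared by the one encoded by Igf2r. Igf2 intensity read 4.49, 4.36 and 4.22 under vehicle and 4.30, 4.54 and 4.35 under TMP195. Its range of 0.31 was the narrowest of the 9 genes, and its mean intensity, at percentile 34.4, was the lowest rank among them. The difference was 0.04, with a 95% interval of -0.22 to 0.31 (limma, adjusted p = 1.00), and it turned to -0.025 without vehicle tumour 3 and to -0.029 without TMP195 tumour 2.

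Of 18 measured genes of the insulin-like growth factor axis, 13 were higher and 5 lower under TMP195, with a median of 0.08 beside -0.001 over all genes. None passed an adjusted p of 0.05 or an unadjusted p of 0.05 in limma. Igf2r, itself imprinted, read 9.31, 9.06 and 9.37 under vehicle and 9.39, 9.59 and 9.55 under TMP195. These groups did not overlap, though TMP195 tumour 1 was only just above vehicle tumour 3, and the difference was 0.26 ± 0.12 (SE), or 0.17 without vehicle tumour 2. The binding protein genes Igfbp2 and Igfbp3 differed by 0.58 ± 0.27 and 0.43 ± 0.42, and Igfbp6 by -0.40 ± 0.29, which was -0.10 without vehicle tumour 3.

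Grb10, an imprinted adaptor that dampens insulin and growth factor receptor signalling, was 7.76, 7.08 and 7.64 under vehicle and 7.78, 8.95 and 7.30 under TMP195. TMP195 tumour 2 stood 1.17 above the next tumour, more than 2-fold, as 0.752% of all genes did in that tumour, and the group difference of 0.52 ± 0.41 was 0.04 without it. Without TMP195 tumour 2, Igfbp3 was -0.02 and Igfbp2 0.29, and 7 genes of the axis were higher and 11 lower, with a median of -0.01.

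Plagl1 encodes a zinc finger transcription factor that arrests the cell cycle and regulates other imprinted genes. It read 7.26, 6.91 and 7.20 under vehicle and 7.26, 7.67 and 7.13 under TMP195. TMP195 tumour 2 was highest by 0.41 and vehicle tumour 2 lowest, and TMP195 tumour 3 lay within the vehicle range. The difference was 0.23 ± 0.17 (SE), with a 95% interval of -0.17 to 0.62 (limma, adjusted p = 1.00), and it was 0.07 without TMP195 tumour 2. It turned to -0.035 with both tumours numbered 2 left out. Its 5 measured neighbours, among them Phactr2 and Utrn, had a median range of 0.26.

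Cdkn1c encodes p57, an inhibitor of cyclin-dependent kinases. It read 6.45, 6.67 and 6.48 under vehicle and 6.37, 6.02 and 6.59 under TMP195. TMP195 tumour 2 was lowest by 0.34, while TMP195 tumour 3 lay within the vehicle range, so the groups overlapped. The difference was -0.21 ± 0.16 (SE), with a 95% interval of -0.58 to 0.17 (limma, adjusted p = 1.00), and it was -0.056 without TMP195 tumour 2. With both tumours numbered 2 left out it turned to 0.013.

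The other kinase inhibitors differed among themselves in that tumour. Cdkn2a, the gene for p16 and p19ARF, was 7.33 in TMP195 tumour 2 and from 4.94 to 5.89 in the others, and its neighbour Cdkn2b, the gene for p15, was 7.87 against 5.64 to 5.97. In both genes TMP195 tumour 2 exceeded the next tumour by over 2-fold, while Cdkn2c at 6.80 was second lowest, with the others from 6.73 to 7.25. Cdkn1b and Cdkn2d, further inhibitors of this kind, were highest there by only 0.01 and 0.08. Between the groups Cdkn2b differed by 0.56 ± 0.57 (SE) and Cdkn2a by 0.38 ± 0.61, and without TMP195 tumour 2 they turned to -0.18 and -0.38. Cdkn2c differed by -0.18 ± 0.15, and by -0.08 without vehicle tumour 1. Of 14 measured proliferation genes, 13 were lowest in TMP195 tumour 2, as 22.4% of all genes were. The exception, Tk1, was 9.83 in that tumour and from 7.43 to 8.14 in the others. The mean log2 intensity of the 14 genes was 7.82 in TMP195 tumour 2 and from 8.17 to 8.65 elsewhere. Their part in the Cdkn1c values was not tested.

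**Figure D3:**
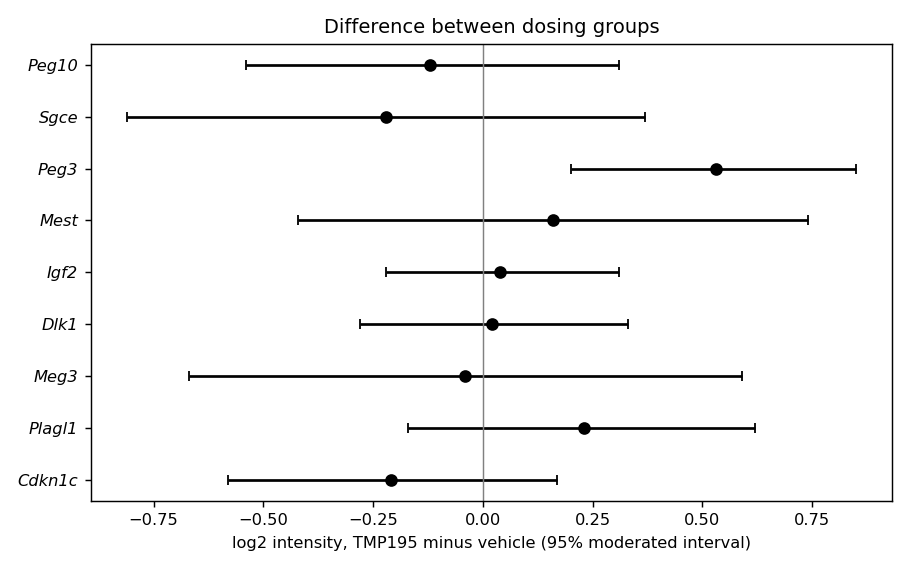
Difference in mean log2 intensity, TMP195 minus vehicle, for the 9 measured genes, with 95% moderated intervals from limma (3 tumours per group). The interval of Peg3 runs from 0.20 to 0.85, and the other 8 intervals include 0; no adjusted p was under 0.05, and Peg10 and Sgce are shown without a test.

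As a group, 5 of the 9 genes were higher under TMP195 and 4 lower, beside 49.5% and 50.5% of all genes, with a median of 0.02. Of the 7 tested, none passed an adjusted p of 0.05 in limma, as 0% of all genes did, and 1, Peg3, had an unadjusted p under 0.05. No member lay more than 2-fold beyond every other tumour, which 1.63% of all genes did, and at 1.5-fold Mest in TMP195 tumour 2 was the only one, beside 5.18% of all genes. TMP195 tumour 2 was the extreme tumour for 8 of the 9, highest in Peg3, Mest, Igf2 and Plagl1 and lowest in Peg10, Sgce, Meg3 and Cdkn1c, beside 25.4% and 22.4% of all genes. It was the highest or lowest tumour in 47.8% of all genes and in 54.2% of those above the 30th percentile of intensity, where all 9 lay. Of the 325 genes in which a single tumour lay more than 2-fold beyond every other, TMP195 tumour 2 was above in 150 and below in 89. Since the gene list was prompted by that tumour, nothing is read from these shares.

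The 4 genes that were highest in TMP195 tumour 2 are all paternally expressed, and the 4 lowest hold Peg10 and Sgce, paternally expressed, beside Meg3 and Cdkn1c, maternally expressed. Between the dosing groups the 5 higher genes are all paternally expressed, and the 4 lower ones are the same Peg10, Sgce, Meg3 and Cdkn1c. Only Meg3 and Cdkn1c of the measured genes are maternally expressed, so most of any such set is paternally expressed. The differences of Igf2 (0.04), Dlk1 (0.02) and Meg3 (-0.04) turned sign when some tumours were left out. So did those of Mest, Plagl1, Cdkn1c and Peg10, and only Peg3 and Sgce kept their sign in all 14 alternatives. Parental origin was not tested.

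A further 46 imprinted genes were measured, of 55 listed. Of these 20 were higher and 26 lower under TMP195, with a median of -0.04, and 0 had an adjusted or an unadjusted p under 0.05 in limma. All TMP195 tumours lay above all vehicle tumours in 4, Igf2r, Magel2, Usp29 and Osbpl5 (3.47% of all genes did), and below them in 1, Blcap (3.21% did). TMP195 tumour 2 was the highest or lowest in 30 of the 46, beside 47.8% of all genes. Among genes above the 30th percentile of intensity the share was 54.2%. The 46 include Calcr, Tfpi2, Casd1, Ppp1r9a, Pon2, Pon3 and Asb4, from the region around Peg10 that prompted the list, so nothing is read from this count. Nnat, the gene for neuronatin, a membrane protein also made in fat, was 5.93, 4.86 and 7.16 under vehicle and 6.19, 4.69 and 5.39 under TMP195. It differed by -0.56 ± 0.61 (SE), which turned to 0.03 without vehicle tumour 3. Airn, the non-coding transcript antisense to Igf2r, differed by 0.37 ± 0.29 and was -0.11 with both tumours numbered 2 left out.

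Around Igf2 and Cdkn1c on chromosome 7, 17 further genes were measured, and 9 were higher and 8 lower, with a median of 0.00. The fast-muscle troponin genes Tnnt3 and Tnni2, which lie near H19, were 8.53 and 7.32 in vehicle tumour 2 and at most 5.86 and 5.64 in the other tumours. Vehicle tumour 2 lay that far, over 2-fold, above every other in 0.301% of all genes. All 13 skeletal muscle markers had a mean of 7.83 in that tumour and from 4.38 to 4.86 in the others. Each of them was lower under TMP195 (median -0.94), and without vehicle tumour 2 this turned to 10 higher and 3 lower, with a median of 0.20. Igf2 in vehicle tumour 2 was 4.36 and Cdkn1c 6.67, the highest of the 6. Phlda2, an imprinted gene that restrains placental growth, differed by 0.27 ± 0.18 (SE), and by 0.08 without TMP195 tumour 2.

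Some marker lists of other cell types had means with the same lowest or highest tumours as some of these genes. Fibroblast and mesenchymal markers, 12 of 12 measured, had a mean log2 intensity of 9.09, 8.80 and 9.46 under vehicle and 9.30, 8.58 and 8.92 under TMP195. TMP195 tumour 2, vehicle tumour 2 and TMP195 tumour 3 were the 3 lowest, in that order, as they were for Sgce. Peg10 was also lowest in those 3, and Meg3 was lowest in the tumours numbered 2. Single markers did not all follow the order of the mean. Of the 12, 7 were lowest in TMP195 tumour 2, as 22.4% of all genes were. Col1a1, a collagen gene, and Lum were lowest in vehicle tumour 2, and Sfrp2 was highest there, at 8.96. Col1a1 ran from 10.66 to 11.24 and Pi16 from 4.18 to 5.45, and no marker was listed at 0. Between the groups 1 marker was higher and 11 lower, with a median of -0.11, and none passed the test. Without TMP195 tumour 2 these were 6 and 6, with a median of 0.03, and without vehicle tumour 2 they were 0 and 12, with -0.27.

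Adipocyte markers, 13 of 14 measured, had means of 6.99, 6.18 and 8.28 under vehicle and 7.70, 5.22 and 6.15 under TMP195. Each of the 13 was lower under TMP195 (median -0.75), and none passed an adjusted p of 0.05 in limma. Without TMP195 tumour 2, 3 were higher and 10 lower, with a median of -0.09, and without vehicle tumour 2 the median was -1.20. Fabp4, a fatty acid carrier of fat cells, was 4.64 in TMP195 tumour 2 and from 6.48 to 9.62 in the others, and Adipoq, the gene for adiponectin, was 3.93 against 5.02 to 8.62. The highest and second highest tumours, vehicle tumour 3 and TMP195 tumour 1, were also the highest in Nnat and, in the other order, in Meg3. Mest, which is also known from fat, was highest where these markers were lowest. Pdk4, which fat and muscle express, was lowest in the same tumour. The part of the adipocyte or fibroblast content in the values of Sgce, Peg10, Meg3 and Nnat was not tested.

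The order of the tumours in Peg3 differed from that in the fibroblast and adipocyte means. TMP195 tumours 1 and 2, at 8.60 and 8.73 in Peg3, had fibroblast means of 9.30 and 8.58 and adipocyte means of 7.70 and 5.22. The luminal epithelial markers, which define the tumour cells of this model, had means from 8.79 to 9.06, with Krt8, a luminal keratin, from 10.66 to 10.86. Endothelial markers ran from 6.45 to 6.75, lowest in vehicle tumour 2, where Peg3 was lowest too, and 7 of 10 were higher under TMP195 with a median of 0.12. The median was 0.04 without vehicle tumour 2, and with both tumours numbered 2 left out 5 were higher and 5 lower, with -0.01. The remaining lists had means from 6.56 to 7.06 for basal epithelial markers, 6.42 to 6.87 for pericyte and 8.13 to 8.53 for macrophage markers. Means were at most 4.44 for T cell and at most 3.57 for B cell markers. The basal epithelial and T cell means were also lowest in vehicle tumour 2. The T cell mean was highest in TMP195 tumour 2, as Peg3 was. Milk protein genes were at 7.47 in TMP195 tumour 2, the lowest, and at most at 11.48, in vehicle tumour 3. The part of these cell types in the Peg3 difference was not tested.

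**Figure D4:**
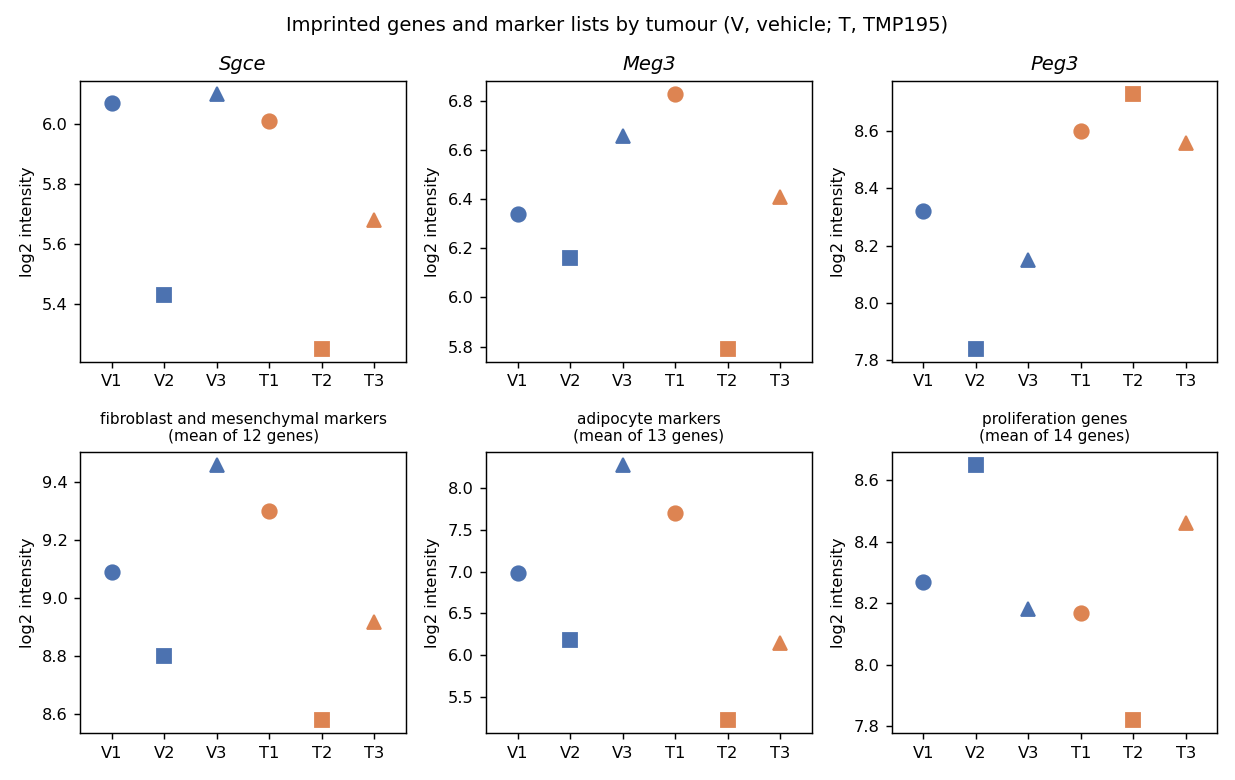
Log2 intensity by tumour of Sgce, Meg3 and Peg3 (top) and of the mean of 3 gene lists (bottom), with vehicle tumours in blue and TMP195 tumours in orange. Sgce and the fibroblast list are lowest in T2, V2 and T3 in the same order, and Peg3 is highest in the 3 TMP195 tumours. The part of the lists in these values was not tested.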

How the data were processed

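Imprinted growth genes and gene lists were chosen with earlier results of these data known. The deposited values are probe set intensity, which the authors made by RMA (Affymetrix Power Tools; submitters' processing notes). Versions, filters and genome build: not given in the sources used here. RMA as usually run gives log2 values, but the file was taken as linear, since all 27359 probe sets were above 0 and column maxima ran from 8137 to 8873, with medians from 44.8 to 46.4. No scanner files were used. Log2 was taken, probe sets with 1 gene symbol were kept, and the brightest represented a gene.

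All 19937 genes entered one limma fit (version 3.58.1, R 4.3.3; lmFit, eBayes; 2.93 prior and 4 residual degrees of freedom; two-sided; Benjamini-Hochberg over all genes), with TMP195 minus vehicle as contrast and no low-intensity filter. The fit was tested on simulated data with added changes of 2-fold or more. The differences of all members were smaller, so that test does not tell how often changes of their size would be found. Named genes were the 9 measured members, up to 4 per list by difference, locus genes more than 2-fold beyond every other tumour, and nearest profiles of members with a 2-fold range; further genes were named after their values were seen. Names matched RefSeq by Entrez ID for all 9. Alternatives were a replicate block, cyclic loess, median centring, a robust trended prior, a 30th percentile filter, probe set means, array weights, a 1.5-fold limit and leaving out tumours. Same-numbered tumours deviated from their group means with correlations of -0.21, -0.06 and -0.10, so numbers were not taken as pairs. Tables and plots used Python 3.11.15 (pandas 2.3.3; numpy 2.4.6; matplotlib 3.10.9).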

Additional observations from a re-analysis of the deposited data

How the results depend on the processing

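No gene passed an adjusted p of 0.05 in limma under any of the 14 alternatives, with 243 to 938 genes at an unadjusted p under 0.05, and the lowest adjusted p of a tested member was 0.96. With the replicate block 0 genes and 0 members passed, and Peg3 differed by 0.53 as without it; the block changed no other call. Members with groups that do not overlap numbered 1, and 1 to 3 when single tumours were left out: Sgce joined Peg3 without vehicle tumour 2 (14% of all genes), and Plagl1 and Cdkn1c joined it without TMP195 tumour 3 (15.8%). There were 2 with both tumours numbered 2 left out. With fewer tumours more of all genes separate, 14% to 18.5% without 1 tumour and 28.8% without both. With a limit of 1.5-fold, 1 member, Mest, lay beyond every other tumour, as 5.18% of all genes did for some tumour. Differences turned sign with both tumours numbered 2 left out for Mest (-0.18), Igf2 (-0.029), Meg3 (0.12), Plagl1 (-0.035) and Cdkn1c (0.013). Leaving out 1 tumour gave from -0.12 to 0.39 for Mest, -0.029 to 0.11 for Igf2, -0.083 to 0.11 for Dlk1 and -0.28 to 0.24 for Meg3. Array weights kept the sign of each member's difference but gave 0.00075 for Mest, 0.085 for Plagl1, -0.079 for Cdkn1c, -0.043 for Peg10, -0.016 for Meg3 and, larger, 0.08 for Dlk1. The cause was not tested. No scaling shifted the median of all genes by more than 0.015. Signal over background was not analysed here, so the dim probe sets carry no detection call.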
